A study of Mus musculus with 4 samples.

Results

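The chromatin around 10 chemokine genes was examined in inflamed mouse keratinocytes: Cxcl1, Cxcl2, Cxcl5, Cxcl9, Cxcl10, Cxcl14, Cxcl16, Ccl2, Ccl20 and Ccl27a. Peaks of open chromatin from 4 ATAC-seq libraries sharing at least 1 bp were joined into the regions of 1 atlas, and every region that touched one of these gene bodies (GENCODE M21) or the 20 kb on either side was kept. This gave 46 chemokine regions among the 82641 regions of the atlas. Because Cxcl1 and Cxcl2 are neighbours, 3 of the 46 lay in the windows of both. The nearest start site of any gene was that of a listed chemokine gene for 27 regions and that of another gene for 19, so the regions are assigned here by distance and not by a shown link to expression. Each region is named by its gene and by the position of its strongest summit relative to the nearest start site of that gene, with downstream positions counted as positive.

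ATAC-seq marks open chromatin by the insertion of sequencing adapters with the Tn5 transposase. The 4 libraries were 2 labelled Wild Type (WT) and 2 labelled Mapk8-KO, numbered by their titles. The study's methods state that the mice were females of 8 to 12 weeks on a C57BL/6 background, controls were littermates, and Mapk8, which encodes the kinase JNK1, was deleted from floxed alleles (Mapk8 fl/fl) by a Cre recombinase under the promoter of keratin 14, a keratin of the epidermis and of other stratified epithelia. All 4 libraries came from skin treated for 8 days with a cream of 5% imiquimod, an agonist of Toll-like receptor 7 that induces psoriasis-like inflammation. EpCam+CD49f-hi cells were sorted for the assay. No library from untreated skin was analysed here, so the values describe inflamed skin in both genotypes and not a response to the cream. The study states that the 2 ATAC-seq samples of each genotype were independent. Neither it nor the labels say whether they were single animals or pools, and p-values therefore measure only the spread between these libraries.

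Chemokines are small secreted proteins that direct the migration of leukocytes through G protein-coupled receptors on the responding cells. In inflamed epidermis, keratinocytes are a source of ligands that draw neutrophils, T helper 17 cells, dendritic cells and monocytes, while other ligands are made in resting skin. Many inflammatory chemokine genes are under the control of NF-kB, and JNK1 acts upstream of c-Jun, a component of the AP-1 transcription factors.

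The 150 bases upstream of the first start site in the basic set of GENCODE M21 held a match to the NF-kB consensus in 5 of the 10 genes, against 2.83% of 21911 protein-coding genes searched in the same way. These 5 sequences are shown because they hold that match. They are written 5′ to 3′ on the strand of the gene (GRCm38, the assembly mm10 denotes), with capitals marking matches to the NF-kB consensus and, in Cxcl10, also to the AP-1 motif TGACTCA read on either strand.
Cxcl1, chr5:90891091-90891240, plus strand: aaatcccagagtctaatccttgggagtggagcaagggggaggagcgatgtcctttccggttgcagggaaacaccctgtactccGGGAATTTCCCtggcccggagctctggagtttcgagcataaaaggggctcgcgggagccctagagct
Cxcl2, chr5:90903721-90903870, plus strand: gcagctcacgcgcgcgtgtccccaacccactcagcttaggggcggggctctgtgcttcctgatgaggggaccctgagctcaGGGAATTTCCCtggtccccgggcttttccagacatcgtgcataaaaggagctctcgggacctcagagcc
Cxcl5, chr5:90759228-90759377, plus strand: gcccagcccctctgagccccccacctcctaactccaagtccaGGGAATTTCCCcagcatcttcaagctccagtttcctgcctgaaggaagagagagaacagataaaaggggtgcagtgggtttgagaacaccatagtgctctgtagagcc
Cxcl10, chr5:92348890-92349039, minus strand: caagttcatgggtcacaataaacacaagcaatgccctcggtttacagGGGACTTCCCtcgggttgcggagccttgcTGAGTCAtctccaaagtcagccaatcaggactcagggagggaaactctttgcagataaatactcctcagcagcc
Ccl20, chr1:83116616-83116765, plus strand: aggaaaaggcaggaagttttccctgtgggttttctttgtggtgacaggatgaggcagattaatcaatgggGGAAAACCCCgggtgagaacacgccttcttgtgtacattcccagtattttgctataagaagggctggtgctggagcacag

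In Cxcl1, Cxcl2 and Cxcl5 the capitals are the same run of letters, in which the consensus matches at neighbouring offsets. Counted from −1 at the base before the start site, the matches spanned −67 to −57 in Cxcl1, −69 to −59 in Cxcl2 and −108 to −98 in Cxcl5. The gene record of Cxcl5 begins upstream of this start site, so the last 18 of the bases printed for Cxcl5 lie inside the annotated gene. The single match of Ccl20 lay at −80 to −71. In Cxcl10, NF-kB matched at −103 to −94 and AP-1 at −74 to −68. The AP-1 motif was found in 1 of the 10 upstream sequences, against 2.39% of all genes. Neither the interferon element GAAANNGAA (3.74% of all genes) nor the STAT element TTCNNNGAA (3.88%) matched in any of the 10 upstream sequences. The Cxcl10 promoter region described below holds 1 interferon element outside the bases printed. A match is a run of letters and does not show that a factor is bound.

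The libraries held 69927 (WT 1), 54856 (WT 2), 69583 (Mapk8-KO 1) and 49856 peaks (Mapk8-KO 2). The accessibility measure used below is the summit pileup, the number of fragments over the highest point of a region, recovered from the deposited fold enrichment and p-value. By the median pileup of regions called in all 4 libraries, replicates 2 were shallower, at 0.694 (WT 2) and 0.612 (Mapk8-KO 2) of WT 1, and Mapk8-KO 1 stood at 1.10. The lowest pileup of any peak was 8 to 10 fragments, so a region without a call is below detection and not shown to be closed. Of keratinocyte marker genes, all 8 had a promoter region in at least 1 library, and for 5 (Krt15, Itga6, Epcam, Trp63 and Cdh1) the same region was called in all 4. Krt5 and Col17a1 lacked a call in at least 1 library. Krt14 had a call in each library but no region shared by all 4. At the Krt14 start site, with the summit 103 bases upstream, the pileup was 36 fragments in WT 1, without a call in WT 2, against 199 and 109 in Mapk8-KO, and the region farther upstream had 38 and 17 in WT, 33 in Mapk8-KO 1 and no call in Mapk8-KO 2. The part of this difference between genotypes in the chemokine regions was not tested. None of 7 immune marker genes had one, including Ptprc, and 2 of 4 endothelial, 2 of 5 fibroblast and 3 of 4 melanocyte markers had one in all 4. The part of cells other than keratinocytes in the chemokine regions was not tested. At Mapk8, the promoter pileup was 96 and 73 fragments in WT and 109 and 90 in Mapk8-KO (log2 difference 0.26 ± 0.18 SE, limma adjusted p = 0.615). Deletion of an exon cannot be read from lists of peaks.

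Most chemokine regions were open in both genotypes. Of the 46 regions, 28 (60.9%) were called in all 4 libraries, against 48.6% of the atlas. No chemokine region was called in both WT libraries alone (2.17% of the atlas) or in both Mapk8-KO libraries alone (1.65%). Both replicate 1 libraries, and no other, called 5 regions (10.9%, against 7.91% of the atlas). The other 18 were missing from at least 1 library, and the shallower WT 2 and Mapk8-KO 2 each missed 14 regions. WT 1 and WT 2 called 42 and 32 chemokine regions and Mapk8-KO 1 and Mapk8-KO 2 called 43 and 32. The groups overlapped, at 37 ± 7.07 in WT and 37.5 ± 7.78 in Mapk8-KO (SD, n = 2 each; two-sided exact permutation p = 1, with 0.333 the smallest p that 2 against 2 libraries allow). Leaving out a single library moved the difference, WT minus Mapk8-KO, between −6 and 5 regions, so it was set by which libraries were present. With lists cut to equal length, 1 of 40 chemokine regions was called in both WT libraries alone (2.50%, against 2.70% of the 65121 regions that remained) and 3 of 40 in both Mapk8-KO libraries alone (background 2.32%).

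**Figure D1:**
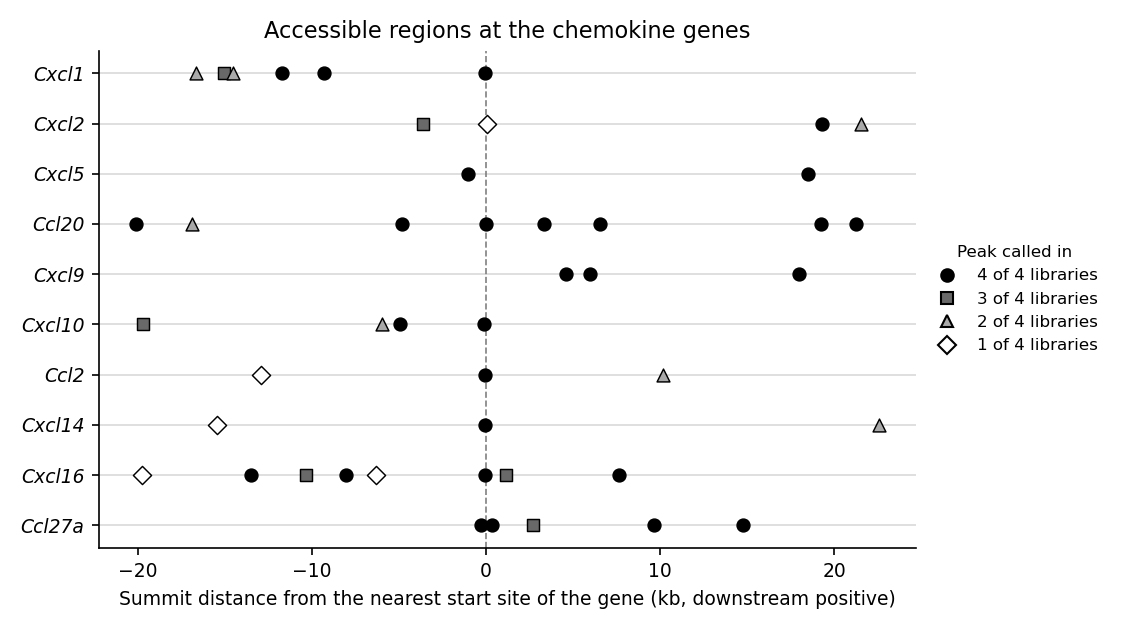
Position of the 46 chemokine regions relative to the nearest start site of their gene (x axis, kb) for each gene (y axis), with the symbol giving the number of libraries that called the region. Filled circles, called in all 4, lie within 2 kb of the start site of 8 genes, for Cxcl5 only at −1.1 kb. Cxcl2 has a call in 1 library there and Cxcl9 has none.

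A promoter region, within 2 kb of a start site of the gene, was called in all 4 libraries for 8 of the 10 genes, against 55.0% of 21924 protein-coding genes. The exceptions were Cxcl2 and Cxcl9. In all, 17 of the 46 regions lay within 2 kb of a start site of any gene (37.0%, against 26.7% of the atlas). The strongest summits fell between genes in 25 regions, in introns in 11, in untranslated regions in 8 and in coding exons in 2. Median GC content near the summit was 50.2% both in the chemokine regions and in the atlas.

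**Figure D2:**
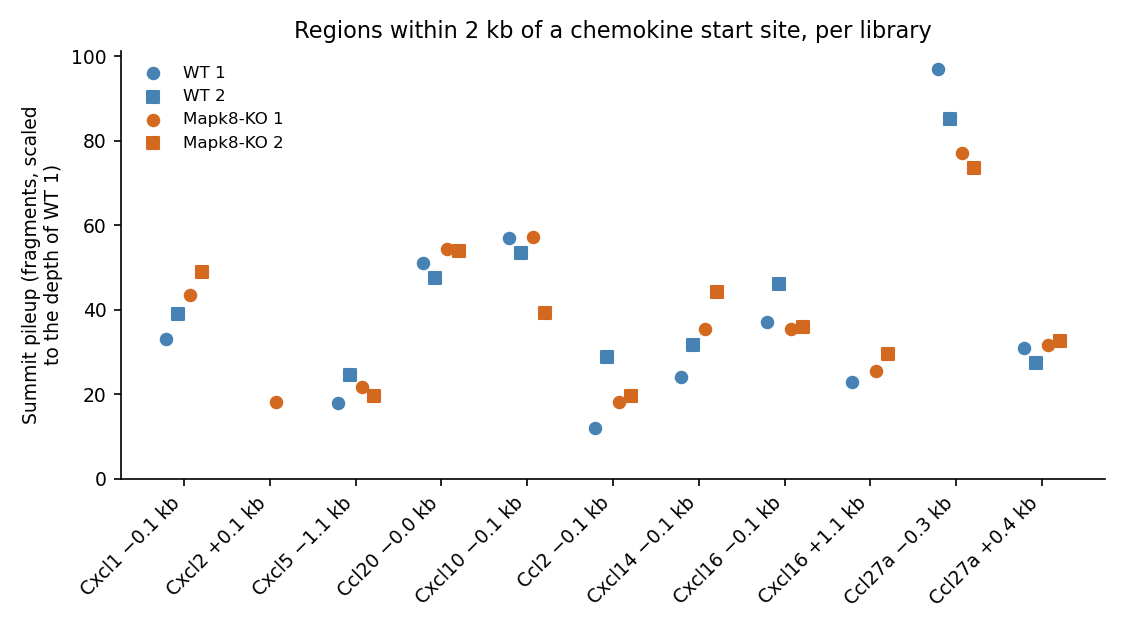
Summit pileup in fragments, divided by the depth of each library relative to WT 1 (y axis), at the 11 regions within 2 kb of a chemokine start site; each point is 1 library and a missing point is a library without a call. The Ccl27a region at −0.3 kb is the most accessible in every library and Cxcl2 has a single point, from Mapk8-KO 1.

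Cxcl1, Cxcl2 and Cxcl5 encode ligands of the receptor CXCR2, through which neutrophils are recruited. The Cxcl1 promoter region (chr5:90890863-90891621) had 33 and 27 fragments at its summit in WT and 48 and 30 in Mapk8-KO, with replicate 1 first, as in the pairs of values that follow. After scaling to depth both Mapk8-KO libraries were above both WT libraries, with a log2 difference, Mapk8-KO minus WT, of 0.37 ± 0.26 (SE; limma adjusted p = 0.628 by Benjamini-Hochberg over 40159 regions). Its fold enrichment over local background was 10.5, 11.1, 12.2 and 9.85 in the same order of libraries, and here the groups overlapped. The consensus match printed above for Cxcl1 lies within this region.

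Farther upstream of Cxcl1, regions at −11.7 kb and −9.3 kb were also called in all 4 libraries. Pileups were 63, 67, 96 and 47 at the first and 83, 41, 90 and 45 at the second, higher in raw fragments than at the promoter in every library. The log2 differences were 0.07 ± 0.20 and 0.15 ± 0.20 (limma adjusted p = 0.936 and 0.839). The local background was also higher there, at 7.06 to 15.4 fragments for the first region against 1.53 to 3.01 at the promoter, so the fold was lower, at 4.73 to 7.41 for the first and 5.08 to 7.10 for the second. Another 3 upstream regions, from −16.7 to −14.6 kb, were missing from 1 or 2 libraries.

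Cxcl2, which lies next to Cxcl1 and whose upstream sequence holds the same NF-kB run, had a call at its start site in Mapk8-KO 1 alone, with 20 fragments. The region at −3.6 kb had 27 and 26 fragments in WT and 27 in Mapk8-KO 1, and Mapk8-KO 2 lacked a call there. The region at +19.3 kb (chr5:90922980-90923365), in an intron of the noncoding gene Gm42530, was called in all 4, at 34 and 22 fragments in WT and 50 and 30 in Mapk8-KO. It had the lowest unadjusted p of the chemokine regions, with a log2 difference of 0.52 ± 0.26 (limma adjusted p = 0.441). Its percentile, the rank of its fold among the regions called in all 4 libraries, was 62.1 and 48.1 in WT against 74.9 and 79.7 in Mapk8-KO.

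Cxcl5 had 2 regions, both called in all 4 libraries. The upstream region at −1.1 kb had 18 and 17 fragments in WT and 24 and 12 in Mapk8-KO, and the region at +18.5 kb had 24 and 20 against 36 and 16. After scaling to depth the groups overlapped in both, and the log2 differences were −0.02 ± 0.32 and 0.15 ± 0.30 (limma adjusted p = 0.990 and 0.896). The NF-kB run of Cxcl5, close to the start site, lay outside the region at −1.1 kb.

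Ccl20 encodes the ligand of CCR6, the receptor of T helper 17 cells and of immature dendritic cells. Of the 10 genes it had the most regions called in all 4 libraries, 7 of the 8 in its window. The region at +3.3 kb (chr1:83119858-83120570) had 139 and 76 fragments in WT and 175 and 63 in Mapk8-KO, and that at +6.5 kb had 125 and 76 against 137 and 82. Both lie between genes, downstream of Ccl20. Their log2 differences were small beside their errors, at 0.05 ± 0.18 and 0.14 ± 0.18 (limma adjusted p = 0.949 and 0.813).

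The promoter region of Ccl20 (summit 4 bases before the start site) had 51 and 33 fragments in WT and 60 and 33 in Mapk8-KO, with a log2 difference of 0.14 ± 0.23 (limma adjusted p = 0.876). Its local background was 11.6, 6.98, 13.6 and 5.53 fragments in the order WT 1, WT 2, Mapk8-KO 1 and Mapk8-KO 2, against medians of 4.36, 2.88, 4.76 and 2.68 over all regions called in all 4. The fold was therefore only 4.13 to 5.20, and the percentile 2.58, 3.09, 2.46 and 12.2. The Cxcl1 promoter, with fewer fragments in each library, stood at percentiles 63.8, 73.4, 77.0 and 68.2. Fold and pileup thus order these promoters in opposite ways.

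A pair of distal regions at Ccl20 ranked apart between genotypes, in opposite directions. At +21.2 kb (chr1:83137479-83138386) pileups were 79 and 43 in WT and 108 and 51 in Mapk8-KO, and percentiles 34.9 and 29.4 against 51.3 and 55.9. At −20.1 kb pileups were 63 and 41 in WT and 60 and 25 in Mapk8-KO, and percentiles 45.4 and 49.4 against 34.3 and 27.1. The groups did not overlap in either, but the log2 differences did not pass limma, at 0.37 ± 0.20 (adjusted p = 0.477) and −0.37 ± 0.23 (adjusted p = 0.561). The region at −4.8 kb, with 55, 28, 58 and 20 fragments, differed by −0.18 ± 0.25 (adjusted p = 0.836).

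The sequences around the summits of these regions are shown, with the +19.3 kb region of Cxcl2, because their ranks differed most between genotypes among regions outside exons. The Cxcl1 region at −9.3 kb and the Cxcl16 region at −8.1 kb are added as regions open in all 4 libraries that hold an AP-1 match. Each is 101 bases centred on the strongest summit, on the plus strand of GRCm38, with matches to AP-1 and NF-kB in capitals.
Ccl20 at −20.1 kb, chr1:83096617-83096717: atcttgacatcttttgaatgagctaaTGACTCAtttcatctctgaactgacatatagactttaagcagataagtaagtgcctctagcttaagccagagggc
Ccl20 at +21.2 kb, chr1:83137968-83138068: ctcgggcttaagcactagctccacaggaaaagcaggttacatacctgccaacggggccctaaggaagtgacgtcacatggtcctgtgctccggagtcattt
Cxcl2 at +19.3 kb, chr5:90923100-90923200: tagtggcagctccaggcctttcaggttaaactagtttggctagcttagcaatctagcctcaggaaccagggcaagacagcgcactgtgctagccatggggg
Cxcl1 at −9.3 kb, chr5:90881891-90881991: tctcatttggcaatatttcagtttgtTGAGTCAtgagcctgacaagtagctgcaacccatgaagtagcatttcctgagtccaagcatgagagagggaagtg
Cxcl16 at −8.1 kb, chr11:70467984-70468084: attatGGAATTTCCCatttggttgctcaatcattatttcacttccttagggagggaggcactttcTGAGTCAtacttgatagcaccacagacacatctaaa
Near its summit, Ccl20 at −20.1 kb, which ranked higher in WT, has an AP-1 match. Of the 3 regions that ranked higher in Mapk8-KO, the Cxcl14 promoter also has one near its summit, Ccl20 at +21.2 kb has 2 outside the bases printed, and Cxcl2 at +19.3 kb has none in the whole region.

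Cxcl9 and Cxcl10 encode interferon-induced ligands of CXCR3, a receptor of activated T cells. They differed in promoter accessibility. No library called a region within 2 kb of the Cxcl9 start site, while regions at +4.6 and +6.0 kb, in its untranslated sequence, were called in all 4. Pileups were 27, 20, 37 and 18 at the first and 16, 21, 28 and 17 at the second (log2 differences 0.17 ± 0.29 and 0.27 ± 0.31; limma adjusted p = 0.877 and 0.793). A region at +18.0 kb, with 39, 23, 39 and 22 fragments, lies at the start site of Sdad1.

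The Cxcl10 promoter region (chr5:92348848-92349140) had 57 and 37 fragments in WT and 63 and 24 in Mapk8-KO. Its percentile was 56.8, 61.5 and 63.0 in WT 1, WT 2 and Mapk8-KO 1 and 28.1 in Mapk8-KO 2. The value of Mapk8-KO 2 therefore stood apart, and the log2 difference was −0.22 ± 0.24 (limma adjusted p = 0.776). The region at −4.9 kb, in an intron of Art3, had 55, 42, 68 and 36 fragments, with percentiles of 41.3, 61.8, 55.1 and 56.0, and differed by 0.06 ± 0.22 (limma adjusted p = 0.951).

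Ccl2 encodes a ligand of CCR2 that recruits monocytes. Its promoter region had 12 and 20 fragments in WT and 20 and 12 in Mapk8-KO, close to the lowest pileups that were called. The log2 difference was 0.02 ± 0.33 (limma adjusted p = 0.992), and the percentiles of the WT libraries, 2.75 and 39.0, lay on either side of both Mapk8-KO values. The other 2 regions at Ccl2 were called in 1 and 2 libraries.

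Cxcl14, a chemokine made in resting epithelium, had 1 region called in all 4 libraries, at its promoter (chr13:56296111-56296660). Pileups were 24 and 22 in WT and 39 and 27 in Mapk8-KO. Percentiles were 37.1 and 54.6 in WT against 67.3 and 75.3 in Mapk8-KO, so both Mapk8-KO libraries ranked above both WT libraries. The log2 difference of 0.52 ± 0.28 did not pass limma (adjusted p = 0.491). Its upstream 150 bases held none of the motifs searched, but an AP-1 match lay within 100 bp of the summit.

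Cxcl16 encodes a membrane-bound ligand of CXCR6. Its promoter region, with the summit in an untranslated exon of Zmynd15, had 37 and 32 fragments in WT and 39 and 22 in Mapk8-KO (log2 difference −0.21 ± 0.27, limma adjusted p = 0.816). The region at −8.1 kb had 64, 38, 67 and 31 fragments (−0.09 ± 0.22, adjusted p = 0.918) and that at −13.5 kb had 28, 20, 22 and 19 (−0.19 ± 0.30, adjusted p = 0.865). The region at +7.6 kb, at the start of Med11, had the highest median percentile of the 28 chemokine regions called in all 4 libraries, at percentiles 75.5, 87.6, 71.1 and 84.5, and its groups overlapped. The Cxcl16 window also held 3 regions that a Mapk8-KO library missed while WT 1 called them, at 19 to 33 fragments in WT 1. None of these was missing from both Mapk8-KO libraries and called by both WT libraries.

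Ccl27a encodes a ligand of CCR10 that guides T cells to the skin. Its region at −0.3 kb (chr4:41770181-41770789), beside an internal start site, was the most accessible promoter region, with 97 and 59 fragments in WT and 85 and 45 in Mapk8-KO. Scaled to depth, both Mapk8-KO libraries were lower, with a log2 difference of −0.27 ± 0.19 (limma adjusted p = 0.632). The region at +0.4 kb, near the other start sites, had 31, 19, 35 and 20 fragments and differed by 0.14 ± 0.29 (adjusted p = 0.899). A similar gene, Ccl27b, lies on the same chromosome, and reads with several alignments had been removed by the authors, so counts at copied sequence can be too low. The regions at +9.6 and +14.8 kb lie at the start sites of Il11ra1 and Galt.

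Across the 28 regions called in all 4 libraries, no chemokine region passed limma. Of all 40159 regions tested, 0.110% passed as higher and 0.496% as lower in Mapk8-KO. At an unadjusted p under 0.05 there was 1 chemokine region of 28, against 11.3% of all regions, and with fold enrichment in place of pileup there was also 1. With fold enrichment none of all 40159 passed limma, 2731 having an unadjusted p under 0.05. The groups did not overlap in 11 of 28 regions (39.3%), against 41.5% of all. The differences ran from −0.37 to 0.52 on the log2 scale with standard errors of 0.18 to 0.33, so a difference that misses the threshold here is not shown to be absent.

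**Figure D3:**
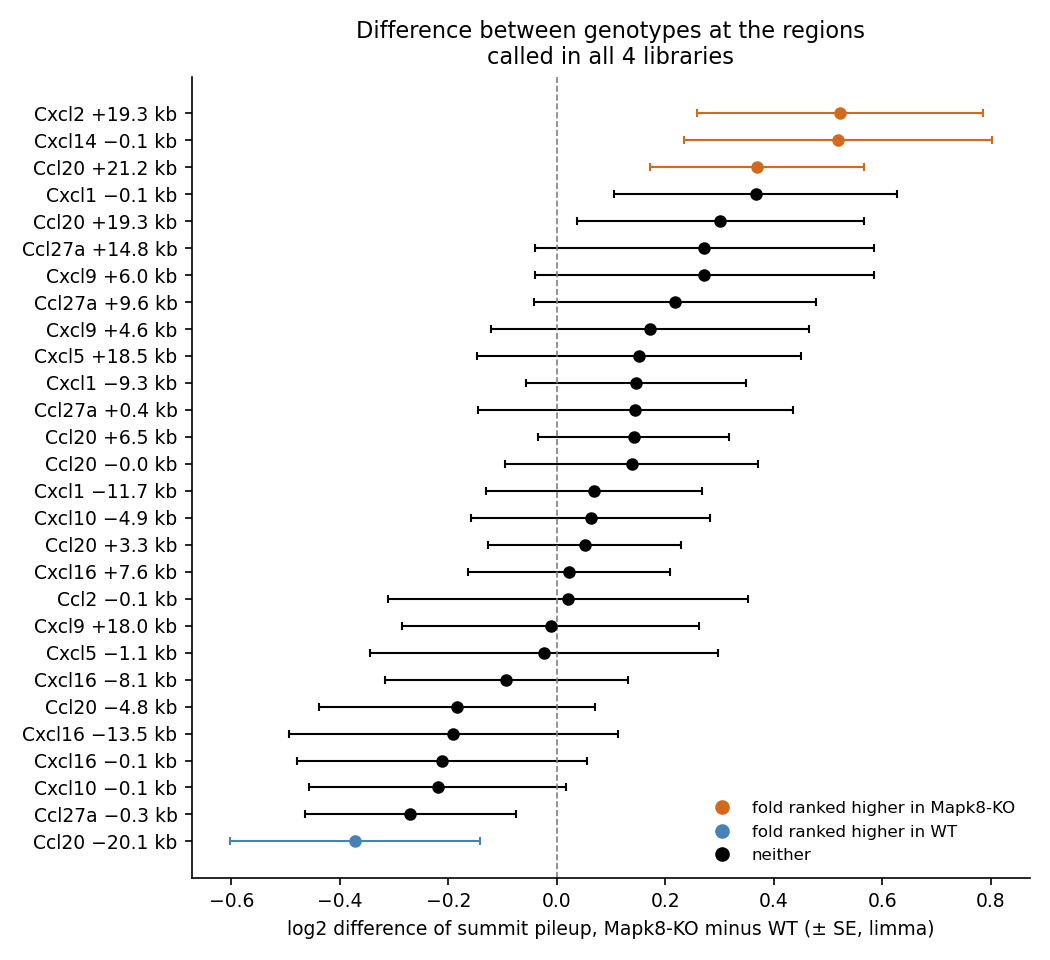
log2 difference of the depth-centred summit pileup, Mapk8-KO minus WT (x axis), for the 28 chemokine regions called in all 4 libraries (y axis); points are limma estimates and bars are ± 1 standard error. The estimates run from −0.37 at Ccl20 −20.1 kb to 0.52 at Cxcl2 +19.3 kb, and no adjusted p is below 0.441.

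By sign, 19 of the 28 differences were above 0 and 9 below, with a median of 0.10, against 57.4% above 0 and a median of 0.05 over all regions. With each library centred on its median ratio to the region means instead, 17 were above 0 and the median was 0.05, against 0.01 over all. Among the 11 regions with an AP-1 match near the summit, 5 were above 0 (median −0.02), and among the 17 without one, 14 were above 0 (median 0.14). Of the 9 regions at chemokine promoters 5 were above 0, and of the 19 others 14. These are counts of regions that share libraries and windows, and they were not tested. The same splits over all regions are not given here. The counts by AP-1 match and by promoter are therefore not shown to be particular to the chemokine regions.

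By rank of fold, 1 chemokine region stood at least 10 percentile points higher in both WT libraries than in both Mapk8-KO libraries (background 4.65% of 40159), and 3 stood higher in Mapk8-KO (background 4.07%). The gaps were 16.4 points at Ccl20 +21.2 kb, 12.8 at Cxcl2 +19.3 kb, 12.7 at the Cxcl14 promoter and, in favour of WT, 11.1 at Ccl20 −20.1 kb. The next were 3.52 points, higher in WT, at Ccl27a −0.3 kb and 2.32 points, higher in Mapk8-KO, at Ccl27a +0.4 kb. Leaving out WT 1, WT 2, Mapk8-KO 1 or Mapk8-KO 2 gave 6, 2, 3 and 1 regions ranked higher in WT and 4, 6, 5 and 6 ranked higher in Mapk8-KO. With 1 library in a group the gap is easier to reach, so 4.65% and 4.07% are not the background of these counts. Their shares over all regions are not given here. The median percentile of the 28 regions was 37.2 and 37.0 in WT and 45.3 and 30.2 in Mapk8-KO. The Mapk8-KO libraries thus enclosed the WT values (37.1 ± 0.195 against 37.8 ± 10.7, SD, n = 2 each; two-sided exact permutation p = 1), and without Mapk8-KO 1 the difference, WT minus Mapk8-KO, was 6.85 points. Ranked by pileup in place of fold, 0 regions stood at least 10 points higher in WT and 1 in Mapk8-KO (shares over all regions not given here). The medians by pileup were 37.1 and 36.8 in WT and 47.2 and 40.0 in Mapk8-KO. Their difference was −6.62 points, with groups that did not overlap (two-sided exact permutation p = 0.333, the smallest possible).

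**Figure D4:**
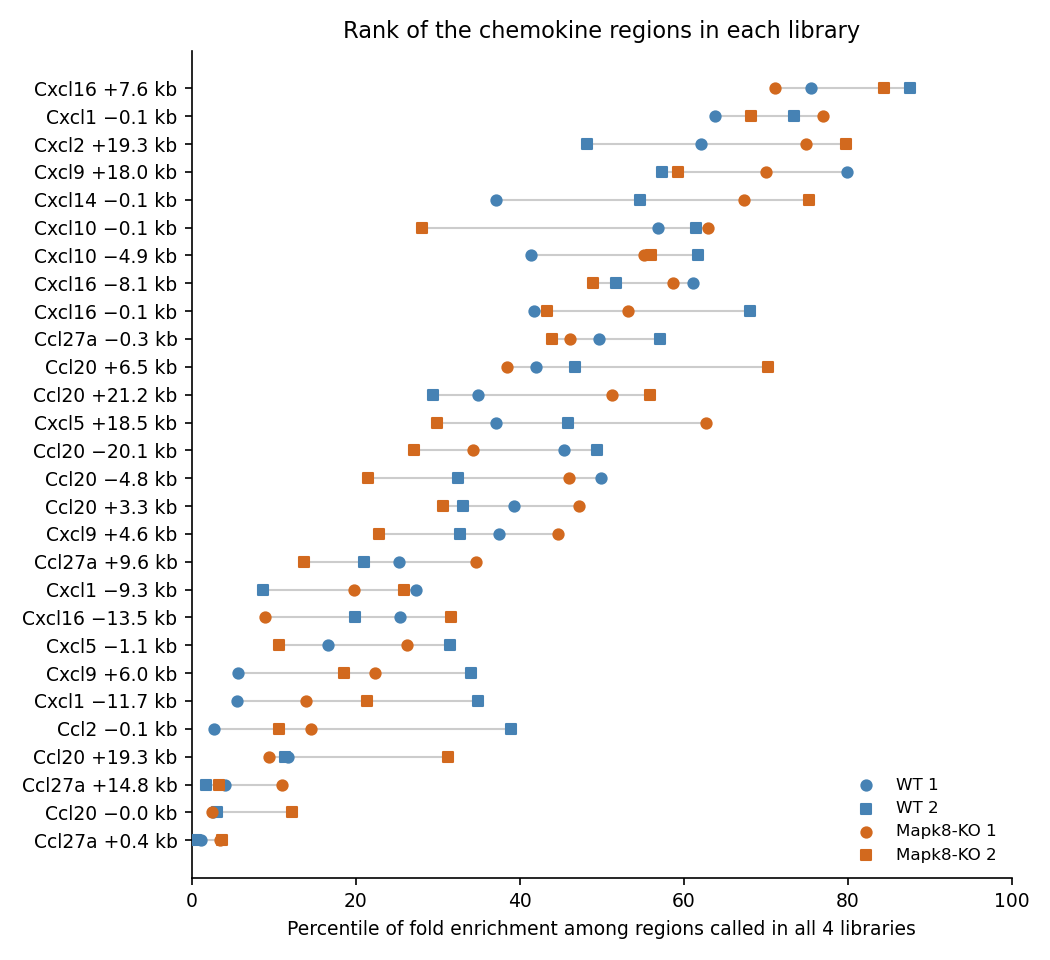
Percentile of fold enrichment of each of the 28 chemokine regions among the 40159 regions called in all 4 libraries (x axis), with 1 point per library and a grey line over their range. WT and Mapk8-KO points separate by at least 10 points in 4 regions, at Ccl20 (+21.2 and −20.1 kb), Cxcl2 (+19.3 kb) and Cxcl14.

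The same 4 motifs were then looked for, on either strand, up to 100 bp from each region's strongest summit. The NF-kB consensus matched in 9 of the 46 regions (19.6%, 95% Wilson interval 10.7 to 33.2), against 3.54% of the atlas. These were the promoters of Cxcl1 and Cxcl10, Cxcl10 −4.9 kb, Cxcl1 −15.1 kb, Ccl27a +2.7 kb and 4 regions of the Cxcl16 window, and 5 of the 9 were called in all 4 libraries. The share was 23.5% of the 17 regions within 2 kb of a start site (3.77% of such regions in the atlas) and 17.2% of the 29 others (3.45%). The AP-1 motif matched in 16 regions (34.8%, 22.7 to 49.2), against 23.7%. It matched in 44.8% of the 29 regions farther than 2 kb from start sites (28.0% of such regions in the atlas). Of the 17 within 2 kb it matched in 17.6% (12.0%). The difference over the 46 regions depended on the window, since with 50 kb on each side of the gene bodies the AP-1 share was 23.9% of 92 regions. The NF-kB share was 12.0% in those 92 regions and 30.8% of the 26 regions within 10 kb.

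The interferon element matched in 2 regions (4.35%, against 4.42% of the atlas), Cxcl9 +6.0 kb and Cxcl10 −19.7 kb. The STAT element also matched in 2 (4.35%, against 5.73%), the Ccl2 promoter and Ccl20 +19.3 kb. Farther than 100 bp from the summit, the Cxcl10 promoter region held 1 interferon element. So did Cxcl2 −3.6 kb, Cxcl9 +18.0 kb and Ccl27a +14.8 kb. The intervals cover counting error only, and the regions of a gene are not independent of each other. The upstream NF-kB match of Cxcl2 printed above lay at a start site that 3 of 4 libraries did not call, and that of Cxcl5 lay in no called region.

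**Figure D5:**
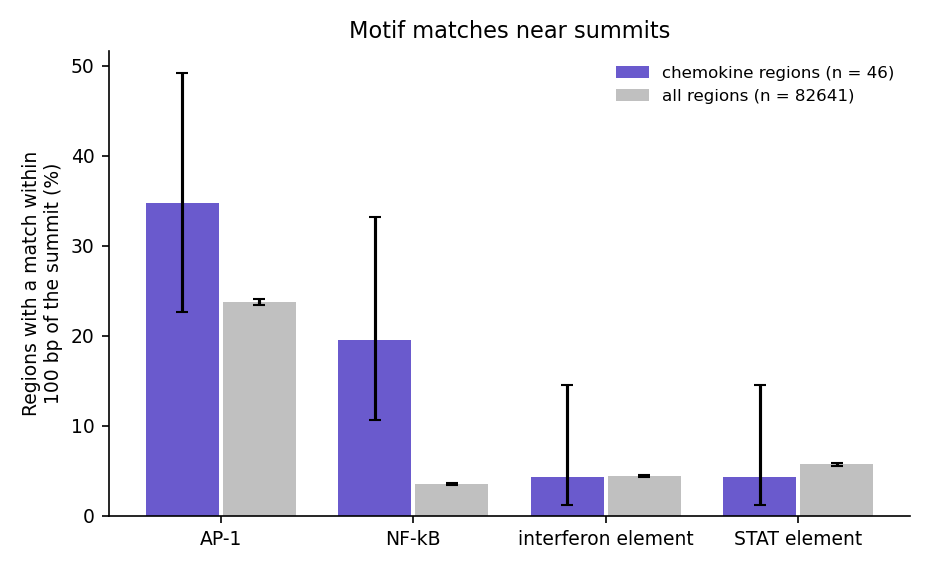
Share of regions with a motif match within 100 bp of the strongest summit (y axis, %), for the 46 chemokine regions and the 82641 regions of the atlas; bars are shares and lines are 95% Wilson intervals. The NF-kB share is 19.6% against 3.54%, and the interferon and STAT shares of the chemokine regions are 4.35% each.

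The other genes of the chemokine system were read in the same windows. Around 27 other ligand genes there were 56 further regions, 23 of them called in all 4 libraries, and 5 of the 27 genes (18.5%, against 55.0% of protein-coding genes) had a promoter region in all 4 (Cxcl3, Cxcl12, Ccl25, Ccl28 and Cx3cl1). None of the 23 passed limma, the lowest adjusted p being 0.165, and 3 had an unadjusted p under 0.05 (13.0%, against 11.3% of all regions). By rank, 4 stood higher in WT (17.4%, against 4.65%), in the windows of Ccl1, Ccl5, Cxcl17 and Cx3cl1, and 0 in Mapk8-KO (background 4.07%). Both WT libraries alone called 2 of the 56 regions (3.57%, against 2.17%), at Ccl11 (14 and 12 fragments) and Ccl8 (14 and 15), both near the detection limit, and both Mapk8-KO libraries alone called 0 (background 1.65%).

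Around 22 receptor genes there were 99 regions, 51 in all 4 libraries, and again 0 passed limma, with 8 at an unadjusted p under 0.05 (15.7%, against 11.3%). A promoter region was called in all 4 for 6 of the 22 genes (27.3%), namely Cxcr2, Cxcr4, Ccr9, Ccr10, Ackr3 and Ackr4. By rank, 3 regions stood higher in WT (5.88%, against 4.65%) and 2 in Mapk8-KO (3.92%, against 4.07%), both of the latter at Ackr4, an atypical receptor that removes chemokines. Both WT libraries alone called 3 of the 99 regions (3.03%, against 2.17%), in the windows of Ackr2, Ackr4 and Cx3cr1, and both Mapk8-KO libraries alone called 1 (1.01%, against 1.65%), at Ackr3. The Ackr4 promoter had 37 and 21 fragments in WT and 54 and 30 in Mapk8-KO, with a log2 difference of 0.55 ± 0.26 (limma adjusted p = 0.402). The promoter of Cxcr2, the receptor of the neutrophil attractants above, had 77, 53, 73 and 35 fragments, and that of Ccr10, the receptor of Ccl27a, had 27, 21, 37 and 18.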

How the data were processed

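ATAC-seq was performed on keratinocytes sorted from imiquimod-treated skin of 2 WT and 2 Mapk8-KO mice or pools. According to the methods, Bowtie2 aligned read pairs to mm10, multi-mapping and poorly mapped reads were discarded by the authors, and MACS2 called peaks library by library (q threshold 0.05, no control library). No shift of read ends for Tn5 is stated. The submitters' processing notes name Trimmomatic 0.36 and STAR 2.5.3. The deposited peak lists give the authors' fold enrichment of the summit pileup over local background, −log10 p and −log10 q values, a score derived from q and the summit offset in bp. The highest deposited q value was 0.00970.

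From these, the summit pileup was recovered as a whole number of fragments (within 0.05 for at least 99.996% of peaks of each library). Reads per region are not analysed here, so the count test of the study was not run. Log2 pileups, the highest per region, were centred on the median of each library and tested with limma 3.58.1 (variance trend, R 4.3.3) over the 40159 regions called in all 4 libraries, with Benjamini-Hochberg adjustment and a threshold of 0.05. Percentiles rank the highest fold per region within a library, from 0 to 100, over the same regions. Single values per library were compared between genotypes with exact permutation tests (two-sided). Relative depth comes from median pileups, since total read numbers were not used here. Motif shares have 95% Wilson intervals, which cover counting error only. Positions are from GENCODE M21 (basic set) and sequences from GRCm38, and peak ends lay within its chromosome lengths. Named by rule were all members and Mapk8, each member's promoter region and its region of highest median percentile, regions past the rank gap of 10 points and the 3 lowest limma p. Further regions of the windows, marker genes and other chemokine and receptor genes are described outside this rule. Replicate numbers did not pair the libraries by their values (Pearson r = 0.0392 over 40159 regions). Alternatives covered windows, peak thresholds, list length, overlap, rank gap, normalization, filters, motif windows and single libraries left out. Members, lists and tests were chosen with earlier results of these data known.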

Additional observations from a re-analysis of the deposited data

How the results depend on the processing

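Of 94 alternatives over 9 results, 64 were counted as keeping the result, 22 moved a count by more than 1.5 times and 8 turned a difference that was not called. The 64 are not all unchanged. They include the AP-1 share with 50 kb windows, at 23.9% near the 23.7% of the atlas, and NF-kB shares of 12.0% and 30.8%, against 19.6%. They also include differences of −6 regions per library, against −0.5, and of −6.62 points in median percentile, against −0.672. No chemokine region passed limma in any fit, the lowest adjusted p being 0.192 to 0.794 when a library was left out and 0.404 with the replicate number as a block (replicate block). The replicate block changed no call of a chemokine region. Over all regions the number called by limma was 243 as reported, 94 with centring on the median ratio (chosen after seeing the data), 386 with the replicate block, 75 of 20078 above the median pileup, 29 with quantile normalization, and 0 with no variance trend or with fold enrichment. It was 51 without WT 1, 10 without WT 2, 1719 without Mapk8-KO 1 and 30 without Mapk8-KO 2, and the cause was not tested.

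Regions ranked higher in WT were 0 with 10 kb windows, with a gap of 20 points and with the percentile of the pileup. Regions ranked higher in Mapk8-KO were 1 with 10 kb windows, 1 where the nearest start site was a member's, 0 with a gap of 20 points and 1 with the percentile of the pileup. The difference in median percentile, WT minus Mapk8-KO, −0.672 as reported, turned to 2.13 with 10 kb windows, 3.40 with the nearest start site and 0.857 with lists of equal length. It was −6.62 with the percentile of the pileup, where the groups did not overlap (two-sided exact permutation p = 0.333, the smallest possible). With 50 kb windows, 1 of 92 regions was called in WT alone and 2 in Mapk8-KO alone, against 2.17% and 1.65% of the atlas. The counts were 1 and 3 of 40 with lists of equal length (background 2.70% and 2.32%). Where peaks had to cover 50% of a region, 1 was called in Mapk8-KO alone. That setting also turned the difference in regions per library to 1, and its share over all regions is not given here.

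Leaving out 1 library gave 0 to 3 regions in WT alone, 0 to 4 in Mapk8-KO alone, 1 to 6 ranked higher in WT and 4 to 6 in Mapk8-KO. Such counts are easier to reach with 1 library in a group, and their shares over all regions are not given here. The difference in regions per library ran from −6 to 5 and that in median percentile from −6.19 to 6.85. The AP-1 share was 32.6 to 34.8% with a library left out. It was 23.9% with 50 kb windows, near the 23.7% of the atlas, 30.8% with 10 kb windows and 37.0% with the nearest start site. Within 50 bp of the summit it was 26.1% (17.0% of the atlas), anywhere in the region 43.5% (29.7%) and in regions called in all 4 libraries 39.3% (24.5%). The NF-kB share was 12.0 to 30.8% over the same 3 choices of window (chosen after seeing the data). Depth limits the calls: an uncalled region holds an unknown pileup below about 8 to 10 fragments over a low background, or more over a high one.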
